A study of Mus musculus with 6 samples.

Results

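The BCL2 family was examined on Affymetrix expression arrays of mice gavaged with fecal exosomes. A list of 10 genes was taken, namely Bok, Bax, Bak1, Bcl2, Bcl2l1, Mcl1, Bcl2l11, Bid, Bad and Bcl2l15, and a gene was matched by its symbol in the platform's annotation. Of these, 9 had a probe set among the 19505 named genes, 1 probe set each, and Bax was not analysed here. Where a gene has several probe sets the brightest one over the 6 arrays would stand for it, a choice that did not arise for these 9. The list was chosen by the log2 values themselves in so far as Bok was picked for its known difference between the groups, so for Bok the values are given as a description and no test is read from them.

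The arrays comprised 3 from H-Exo recipients and 3 from L-Exo recipients. H-Exo are CD63+A33+ exosomes from the feces of mice kept long on a high-fat diet (HFD), and L-Exo are the same kind of exosomes from the feces of mice on a regular chow diet. Recipients were C57BL/6J mice, bought as young adult males per the study's methods and all fed HFD, and received 1 oral dose of 2000000000 exosomes a day for 14 days. Feces of several donor mice were pooled for each exosome preparation, so the arrays do not replicate the donors. No source used here states that each sample is a mouse of its own, and p-values therefore measure only the spread between these arrays.

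BCL2 family proteins decide whether the outer mitochondrial membrane stays intact. Effectors (BAX, BAK and BOK) can open it and release cytochrome c, which starts the caspase cascade, pro-survival members (BCL2, BCL-XL and MCL1) hold the effectors back, and BH3-only members (BIM, BID and BAD) relay stress signals by binding either kind. In the mouse, hepatocytes depend on BCL-XL and MCL1, and the intestinal epithelium, which is shed and replaced within days, depends on MCL1.

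The deposited values are log2 intensities, and a level was called above background if it topped the 95th percentile of 5222 negative controls on the same array, a limit that lay between 7.97 and 8.41. All samples carry the label liver. Of 9 measured hepatocyte markers 1 lay above this level on all 6 arrays (Cps1, which the small intestine also makes) and 7 on none. The remaining marker, Alb, was above it only on the 3 L-Exo arrays, at 8.31, 8.26 and 10.72, against 5.14, 5.47 and 5.86 in H-Exo. By contrast, 8 of 10 genes typical of intestinal epithelium were above it on all 6, among them Cdx2, Vil1 and Gpa33. The values below are therefore not described as liver expression. H-Exo replicate 1 and L-Exo replicate 1 stood apart, with a mean correlation to the other arrays of 0.963 and 0.951 against 0.971 or more for the other 4. Of all named genes, 19.1% lay above background on all 6 arrays.

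Of the 9 family genes, 4 lay above background on all 6 arrays (Bak1, Bcl2l1, Mcl1 and Bcl2l15) and 5 on none (Bok, Bcl2, Bcl2l11, Bid and Bad). No member passed limma's test at an adjusted p under 0.05, where 0% of all 22206 probe sets did. Of the 9, 5 were at a higher mean in H-Exo and 4 at a lower one, and their median log2 difference was 0.0885, beside a median of -0.00971 over all probe sets. Neither value is stable to single arrays: without L-Exo replicate 1, 2 of 9 were higher and the median was -0.23, without L-Exo replicate 3 it was 0.36, and it was negative in 4 of the 6 cases with 1 array left out, also without L-Exo replicate 2 (-0.03), H-Exo replicate 2 (-0.12) and H-Exo replicate 3 (-0.05). At an unadjusted limma p under 0.05 there was 1 member, Bok, and the methods' t-test gave the same 1 (4.06% of all probe sets by limma). As Bok was chosen with this value known, nothing is read from that count. Groups did not overlap for 1 member that was higher in H-Exo, Bok, beside 4.9% of all probe sets in that direction, and for 1 that was lower, Bad, beside 4.71%. In either direction this was 2 of 9 members, beside 9.61% of all probe sets, and the groups of the other 7 overlapped. As Bok was picked for its difference, its place in this count was set by that choice. Of the 8 members other than Bok it was 1, Bad, so nothing is read from the 2 of 9.

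**Figure D1:**
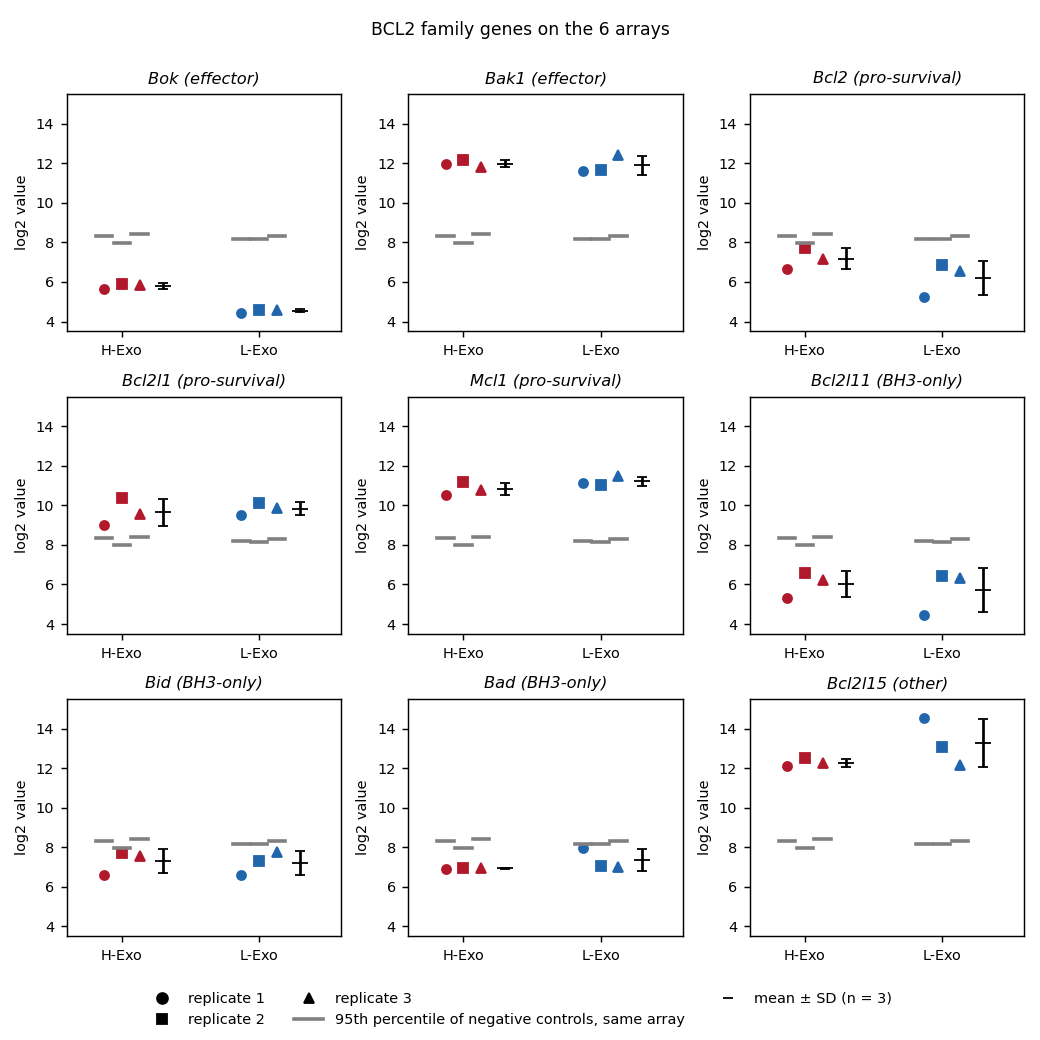
Log2 values of the 9 BCL2 family genes on each array, H-Exo in red and L-Exo in blue, with the marker giving the replicate, black bars the mean ± SD of 3 arrays and grey bars the 95th percentile of the negative controls of the same array. Bak1, Bcl2l1, Mcl1 and Bcl2l15 lie above the grey bars on all 6 arrays and the other 5 genes below them, and the groups of Bok are separated by 1.06.

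Among the effectors, Bok separated the groups. BOK differs from BAX and BAK in that it can act without activation by BH3-only proteins and is kept low in healthy cells by degradation of the protein, a layer that arrays do not measure. Bok was at 5.64, 5.92 and 5.84 on the H-Exo arrays, against 4.45, 4.58 and 4.58 on the L-Exo arrays. All H-Exo values were thus above all L-Exo values, with a gap of 1.06 between the nearest arrays and a spread of at most 0.27 within a group. The mean was 5.80 ± 0.14 in H-Exo and 4.54 ± 0.08 in L-Exo (SD, n = 3 each), a log2 difference of 1.26 (standard error 0.27), and 165 of the 22206 probe sets had a larger positive one. Leaving out 1 array kept this difference between 1.20 and 1.34, which is a description only, as Bok was picked for its difference.

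These values of Bok were dim. Of the negative control probes, 59.6% to 70.1% lay below Bok on the H-Exo arrays and 26.8% to 30.7% on the L-Exo arrays. In L-Exo, Bok was thus dimmer than the median negative control on every array. As no array measured Bok above background, the size of the difference is uncertain and no fold is given. Bulk arrays cannot tell fewer cells of a type from less RNA per cell, which holds for every gene below. Lymphocyte markers moved in the same direction: of 9 measured genes of B and T cells all 9 had a higher mean in H-Exo (8 without H-Exo replicate 1 or L-Exo replicate 1), the mean log2 value of the list was between 6.34 and 7.81 on the H-Exo arrays and between 5.52 and 5.75 on the L-Exo arrays, and 6 of the 9 lay above background on no array. Hepatocyte markers moved the other way, with 8 of 9 lower and a list mean between 5.75 and 6.10 in H-Exo and between 6.47 and 7.39 in L-Exo. Of these 9 markers 7 lay above background on no array, and Alb had the largest difference (-3.61). The part of either list in the value of Bok was not tested.

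The genes whose pattern was most like that of Bok over the 6 arrays were Gkn2, which encodes a gastrokine secreted by gastric epithelium, A130010J15Rik, known by a clone name, and Cep290, which encodes a protein of the ciliary transition zone. Pearson's r was 0.981, 0.981 and 0.969, the highest of 19571 named probe sets compared, of which 128 exceeded 0.9. As Bok was picked for its difference between the groups, a high r over the 6 arrays reflects mostly such a difference. Gkn2 was at 4.77, 5.27 and 5.06 in H-Exo, against 3.96, 4.21 and 4.03 in L-Exo. Gkn2, A130010J15Rik and Cep290 lay below background on all 6 arrays, as Bok did.

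As a view of the gene itself, the 250 bases before the start of Bok and of Bcl2l15 are shown, the members with the largest positive and the largest negative mean difference. The sequences are from RefSeq (GRCm38.p6), both on the plus strand, written 5′ to 3′ with CpG dinucleotides in capitals, and cover chr1:93685325-93685574 for Bok and chr3:103832446-103832695 for Bcl2l15.
Bok: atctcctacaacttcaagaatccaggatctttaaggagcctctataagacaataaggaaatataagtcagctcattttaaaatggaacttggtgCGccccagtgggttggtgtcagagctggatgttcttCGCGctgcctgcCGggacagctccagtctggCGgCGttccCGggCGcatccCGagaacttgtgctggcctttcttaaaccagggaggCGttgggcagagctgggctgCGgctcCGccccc
Bcl2l15: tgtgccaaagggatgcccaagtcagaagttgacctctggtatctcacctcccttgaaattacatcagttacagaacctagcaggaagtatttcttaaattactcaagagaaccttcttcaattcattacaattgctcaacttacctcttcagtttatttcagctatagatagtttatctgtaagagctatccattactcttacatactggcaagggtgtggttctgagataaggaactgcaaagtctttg
The Bok stretch held 12 CpG and the Bcl2l15 stretch 0, beside a median of 6 over all 32851 such stretches. Of all stretches 33.5% held at least as many as Bok, and 7.87% held none. Since the study is about the aryl hydrocarbon receptor, the core of its binding motif, GCGTG, was searched on both strands. It occurred in neither of these sequences, in 4 of the 13 stretches of the 9 members (Bcl2l1, Bcl2l11 and Bad) and in 28.2% of all stretches. A match is a description and not a binding site, and its absence says only that these letters are not in this window.

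Bak1 encodes BAK, the effector that sits in the outer mitochondrial membrane before any death signal. Bak1 was at 11.97, 12.17 and 11.80 on the H-Exo arrays, against 11.59, 11.64 and 12.43 on the L-Exo arrays. The groups overlapped, with L-Exo replicate 3 the highest of all 6. The log2 difference was 0.09 (95% interval -0.65 to 0.83, limma adjusted p = 0.992), and its sign changed when L-Exo replicate 1 (-0.0580), L-Exo replicate 2 (-0.0337) or H-Exo replicate 2 (-0.00578) was left out. Bak1 thus did not share the separation of Bok, although the difference between the 2 genes' responses was not tested.

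Of the pro-survival genes, Bcl2 had the higher mean in H-Exo and Bcl2l1 and Mcl1 the lower one, all 3 with overlapping groups. Bcl2, abundant in lymphocytes, was at 6.66, 7.73 and 7.14 in H-Exo, against 5.22, 6.88 and 6.53 in L-Exo. The overlap came from H-Exo replicate 1, which lay below L-Exo replicate 2. The mean was 7.18 ± 0.53 in H-Exo and 6.21 ± 0.87 in L-Exo (SD, n = 3 each). The log2 difference of Bcl2 was 0.97 (95% interval -0.09 to 2.02, limma adjusted p = 0.988). It was 0.47 if L-Exo replicate 1 was left out and 1.30 if L-Exo replicate 2 was. All 6 values lay below background. The mean of the lymphocyte list was likewise higher in H-Exo. Among the H-Exo arrays the list mean (7.81) and Bcl2 were both highest on replicate 2. Among the L-Exo arrays both were lowest on replicate 1 (5.52 for the list). The lowest H-Exo array was replicate 3 for the list (6.34) and replicate 1 for Bcl2. The highest L-Exo array was replicate 3 for the list (5.75) and replicate 2 for Bcl2. The part of lymphocytes in Bcl2 was not tested.

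Bcl2l1, which encodes BCL-XL, was at 9.01, 10.36 and 9.55 in H-Exo, against 9.51, 10.13 and 9.85 in L-Exo. The H-Exo arrays held both the lowest and the highest value, so the L-Exo values lay within their range. The log2 difference was -0.19 (95% interval -1.06 to 0.69, limma adjusted p = 0.989), with the other sign, 0.13, without H-Exo replicate 1.

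Mcl1 encodes a short-lived pro-survival protein. Mcl1 was at 10.53, 11.16 and 10.79 in H-Exo, against 11.14, 11.05 and 11.48 in L-Exo. Only H-Exo replicate 2 reached into the L-Exo range. The log2 difference was -0.40 (95% interval -1.09 to 0.29, limma adjusted p = 0.988), and it lay between -0.56 and -0.25 when 1 array was left out, -0.25 without H-Exo replicate 1.

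The BH3-only genes all lay below background on all 6 arrays, so no fold is given for them. Bcl2l11, which encodes BIM, was at 5.29, 6.56 and 6.20 in H-Exo, against 4.44, 6.41 and 6.30 in L-Exo. Replicate 1 was the lowest of the 3 arrays in either group. The log2 difference of 0.30 (95% interval -0.95 to 1.55, limma adjusted p = 0.989) became -0.34 without L-Exo replicate 1. Bid, whose protein is cut by caspase-8 and so links death receptors to mitochondria, was at 6.62, 7.73 and 7.58 in H-Exo, against 6.58, 7.31 and 7.77 in L-Exo. Its groups overlapped almost completely, with a log2 difference of 0.09 (95% interval -0.85 to 1.03, limma adjusted p = 0.994) that lay between -0.23 and 0.43 when 1 array was left out.

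Bad, whose protein is held inactive by phosphorylation downstream of growth factors, was the member whose H-Exo values were all below its L-Exo values. Bad was at 6.90, 6.96 and 6.93 in H-Exo, against 7.98, 7.07 and 7.003 in L-Exo. The nearest arrays of the groups were only 0.04 apart, and L-Exo replicate 1 alone was far above the rest. The log2 difference was -0.42 (95% interval -1.18 to 0.34, limma adjusted p = 0.988), and the two-sided exact permutation test gave p = 0.1, the smallest possible with 3 arrays against 3. Without L-Exo replicate 1 it was -0.10, and after quantile normalization the groups overlapped.

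Bcl2l15, a small family member also called Bfk and known in the mouse mainly from the gastrointestinal tract, was above background on all 6 arrays. Bcl2l15 was at 12.09, 12.49 and 12.27 in H-Exo, against 14.55, 13.06 and 12.16 in L-Exo. The H-Exo arrays lay close together, and the L-Exo arrays spread over 2.39, with replicate 1 the highest and replicate 3 within the H-Exo range. The mean was 12.28 ± 0.20 in H-Exo and 13.26 ± 1.21 in L-Exo (SD, n = 3 each). The log2 difference was -0.98 (95% interval -2.18 to 0.23, limma adjusted p = 0.988). It was -0.33 if L-Exo replicate 1 was left out and -1.52 if L-Exo replicate 3 was. Among 8 markers of Paneth and goblet cells, all above background on all 6 arrays, Mmp7, the matrilysin of Paneth cells, named after its values were seen, was likewise highest on L-Exo replicate 1, at 11.81, 12.19 and 12.09 in H-Exo, against 14.91, 13.32 and 12.38 in L-Exo. Spink4 was also highest on L-Exo replicate 1 (19.60), lower in H-Exo by a log2 difference of -0.07 and with groups that did not overlap. Other genes of the list ran the other way: Fcgbp (17.97), Clca1 (18.88), Muc2 (19.03) and Tff3 (19.04), all of goblet cells, were lowest on L-Exo replicate 1, and 4 of the 8 had a higher mean in H-Exo. The list's other Paneth cell genes, Lyz1 and Defa24, were highest on H-Exo replicate 3 and L-Exo replicate 2, with log2 differences of -0.03 and -0.005. The mean of the whole list was 18.54 to 18.67 in H-Exo and 18.50 to 18.71 in L-Exo, and most of its genes lay near the highest value of the arrays. What part these cells had in Bcl2l15 was not tested.

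**Figure D2:**
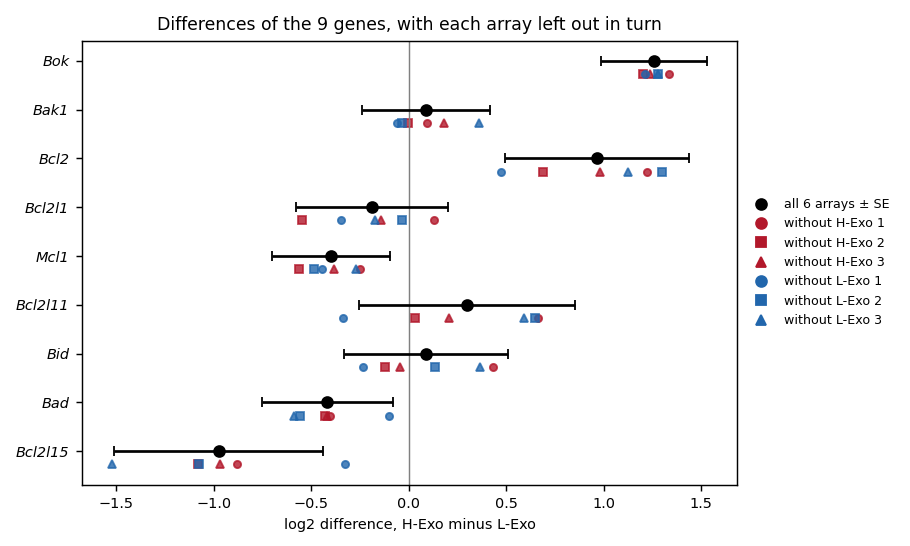
Log2 difference, H-Exo minus L-Exo, of the 9 genes (black, ± standard error) and the same difference with each array left out in turn (coloured markers). Bok, which was picked for its known difference, stays between 1.20 and 1.34. Bak1, Bcl2l1, Bcl2l11 and Bid cross 0, and Bcl2l15 runs between -1.52 and -0.33.

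The 9 genes shared their highest array within H-Exo, but not within L-Exo. Within H-Exo, all 9 were highest on replicate 2 and 8 were lowest on replicate 1. Over all 22206 probe sets, replicate 2 was the highest H-Exo array for 29.3% and replicate 1 the lowest for 36.0%. Over the 4132 probe sets above background on all 6 arrays these shares were 31.7% and 50.02%. Within L-Exo, 6 of the 9 were lowest on replicate 1, as were 38.8% of all probe sets, while Bad and Bcl2l15 were highest there. The span within H-Exo ran from 0.06 for Bad to 1.35 for Bcl2l1, and within L-Exo from 0.13 for Bok to 2.39 for Bcl2l15. Markers of smooth muscle also differed by array: the mean of 6 genes was highest on replicate 1 of either group, 17.96 in H-Exo and 17.64 in L-Exo, against 14.71 and 15.29 on replicate 3. Their part in the spread of the family genes was not tested.

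**Figure D3:**
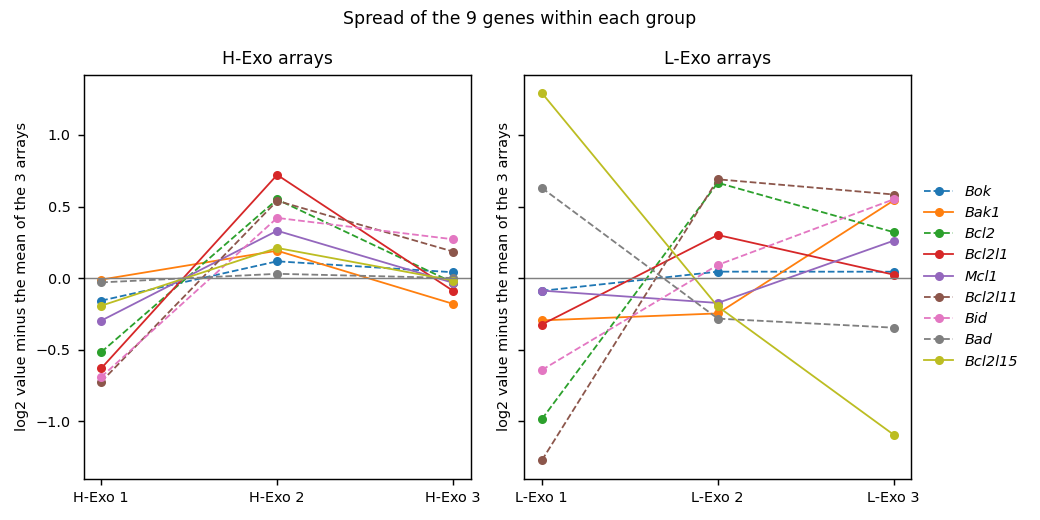
Log2 value of each of the 9 genes minus its mean over the 3 arrays of a group, for H-Exo (left) and L-Exo (right). Solid lines are genes above background on all 6 arrays and dashed lines genes above it on none, lines only join the values of 1 gene, and all 9 genes peak on H-Exo replicate 2.

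The further BCL2 family genes and the steps around them were examined as 5 lists of 63 genes, of which 56 were measured. None passed limma's test (lowest adjusted p = 0.988), and 3 had an unadjusted p under 0.05, 2 higher in H-Exo (2.32% of all probe sets) and 1 lower (1.74%). By mean value 23 were higher in H-Exo and 33 lower. Groups did not overlap for 2 that were higher and 6 that were lower, beside the 4.9% and 4.71% of all probe sets given above.

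Of 16 further family genes, 11 had a higher mean in H-Exo and 5 a lower one, their median log2 difference was 0.16, and 13 lay above background on no array. The median was 0.35 if L-Exo replicate 1 was left out, 0.07 if L-Exo replicate 2 was and 0.10 if H-Exo replicate 1 was. Bcl2a1a, which encodes the pro-survival protein A1 of immune cells, was at 6.02, 5.96 and 5.48 in H-Exo, against 4.66, 5.15 and 5.0004 in L-Exo. All H-Exo values were above all L-Exo values, below background throughout, with a log2 difference of 0.88 (standard error 0.30, limma adjusted p = 0.988). This gene has near-identical copies that may share probes, and among them Bcl2a1b, Bcl2a1c and Bcl2a1d had differences of 0.31, 0.09 and 0.52 with overlapping groups. Bcl2l2, which encodes the pro-survival BCL-W, had a difference of 0.47 (standard error 0.30), which was 0.28 when both replicate 1 arrays were left out. Bcl2l12, which encodes an atypical member of the family, had one of -0.35 (standard error 0.28), which was -0.22 when H-Exo replicate 3 was left out. Both lay below background on all 6 arrays.

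Downstream of the mitochondrial membrane, 12 of 14 measured genes of caspases, the apoptosome and the inhibitors of apoptosis had a lower mean in H-Exo and 2 a higher one (48.9% of all probe sets were higher), and the median log2 difference was -0.18. This lean varied with single arrays: 6 of 14 were higher and the median was -0.07 without H-Exo replicate 1, and 5 were higher without L-Exo replicate 2 (median -0.07) or L-Exo replicate 3 (median -0.13). With L-Exo replicate 1 left out, 4 were higher and the median was -0.37. With H-Exo replicate 2 left out, 3 were higher and the median was -0.35. Aifm1, which encodes the apoptosis-inducing factor of the intermembrane space, was at 9.25, 9.75 and 10.19 in H-Exo, against 10.32, 11.07 and 10.90 in L-Exo. These groups did not overlap and all 6 values were above background. Aifm1 had a log2 difference of -1.03 (standard error 0.35, adjusted p = 0.988 by limma). Apaf1, the scaffold of the apoptosome, was at 9.21, 9.38 and 8.97 in H-Exo, against 9.89, 9.49 and 9.68 in L-Exo. It too was above background on all 6 arrays without overlap of the groups, with a log2 difference of -0.51 (standard error 0.29). Endog, a mitochondrial endonuclease, had a difference of -0.59 (standard error 0.29) at values below background.

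Among 7 measured partners of BOK, BAK, BAX and BID, 5 had a lower mean in H-Exo, and the median log2 difference was -0.41. It was -0.11 if H-Exo replicate 1 was left out and -0.17 if L-Exo replicate 2 was. Umps, the enzyme of uridine synthesis that BOK is reported to bind, had a difference of -0.63 (standard error 0.32) below background on all 6 arrays. Mtch2, which encodes the mitochondrial receptor of truncated BID, was above background on all 6 arrays with a difference of -0.72 (standard error 0.47). It was -0.28 without L-Exo replicate 3. Vdac3, a channel of the outer mitochondrial membrane, had non-overlapping groups and a difference of -0.41 (standard error 0.28), which was -0.27 when L-Exo replicate 1 was left out.

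In the death receptor list 3 of 8 genes had a higher mean in H-Exo (4 without H-Exo replicate 1). Fasl, the ligand carried by cytotoxic lymphocytes, had a difference of 0.54 (standard error 0.32) and its receptor Fas one of 0.50 (standard error 0.35), both below background on all 6 arrays. Tnfrsf1a, a receptor of TNF above background on all 6, had one of 0.50 (standard error 0.39). Leaving out L-Exo replicate 1, the difference of Fas was 0.26 and that of Tnfrsf1a 0.21. It was 0.81 for Fas without L-Exo replicate 2, and for Tnfrsf1a 0.22 without H-Exo replicate 3 and 0.77 without H-Exo replicate 1. The difference of Fasl was 0.38 without L-Exo replicate 3, 0.72 without L-Exo replicate 1 and 0.90 without both replicate 1 arrays. None of the 8 had groups that did not overlap.

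Of 11 genes of the p53 list, 5 had a higher mean in H-Exo and 6 a lower one, with 8 higher without L-Exo replicate 3. Trp53inp1, a p53 target tied to stress responses, was at 9.49, 9.27 and 9.64 in H-Exo, against 9.12, 8.67 and 8.60 in L-Exo. These groups did not overlap, all values were above background, and the log2 difference of Trp53inp1 was 0.67 (standard error 0.30, adjusted p = 0.988 by limma). Sesn1, a stress-induced regulator of growth signaling, ran the other way, with a difference of -0.75 (standard error 0.36) and groups that did not overlap. It was -0.39 without H-Exo replicate 1. Zmat3, a p53 target that binds RNA, had a difference of 0.75 (standard error 0.48) below background, and of 0.17 without L-Exo replicate 1.

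**Figure D4:**
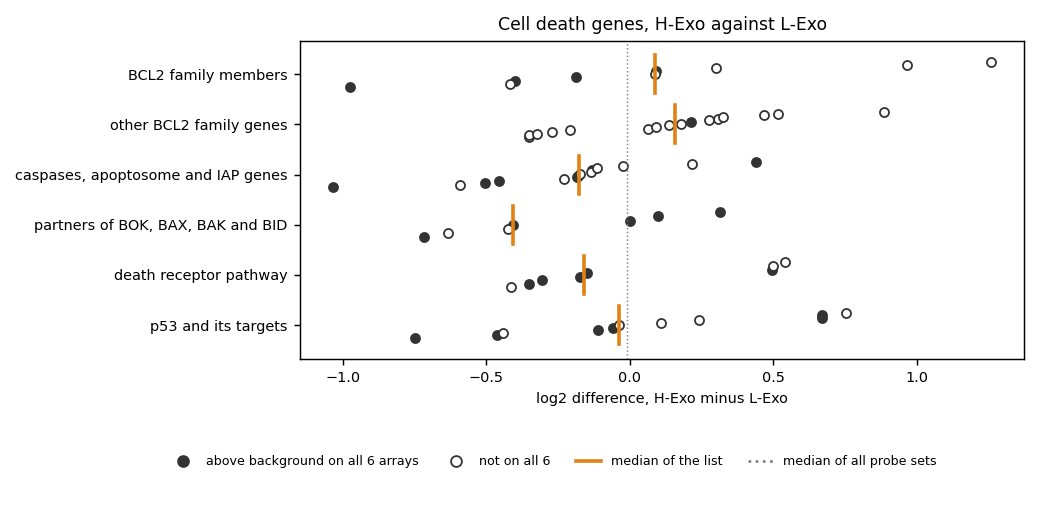
Log2 difference, H-Exo minus L-Exo, of each measured gene of 6 lists of cell death genes, filled where the gene lay above background on all 6 arrays, with the median of each list (orange) and of all probe sets (dotted line). The 14 genes of caspases, the apoptosome and the inhibitors of apoptosis lie 12 left and 2 right of 0, around a median of -0.18 that is -0.07 without H-Exo replicate 1, and the 9 BCL2 family genes lie on both sides of 0.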

How the data were processed

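The 6 Affymetrix arrays, 3 of H-Exo and 3 of L-Exo recipients, were taken as deposited. Per the labels, the authors ran Transcriptome Analysis Console 4.0 with RMA, which corrects background, normalizes arrays to each other and gives a probe set 1 log2 value. Its settings and build are not given here, and the labelling protocol names an Ion AmpliSeq panel beside the Affymetrix one.

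Leaving aside the 5222 negative control probes and 1418 further controls, limma 3.58.1 (R 4.3.3, lmFit, eBayes) was fitted to the other 22206 probe sets, with no filter, two-sided and with Benjamini-Hochberg adjustment. The platform annotation gave 1 symbol to 19572 of them and none to 2634. The number of arrays limits the precision.

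All measured members are named with every value, with the 3 genes of smallest p of each further list (at most 4 were allowed) and the 3 most like Bok. The members and lists were chosen with earlier results of these data known. Alternatives were the eBayes prior, filters on dim probe sets, normalization, array weights, a replicate block, leaving out arrays, the methods' t-test, the threshold and the mean of a gene's probe sets.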

Additional observations from a re-analysis of the deposited data

How the results depend on the processing

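No BCL2 family member was called by limma under any alternative, and the methods' t-test without adjustment called 1 (Bok) among 921 probe sets (0 after adjustment). The count of called probe sets, 0, became 10 with array weights and 1 without both replicate 1 arrays, a setting chosen after seeing the data; leaving out 1 array gave 0 to 1. The 2 members with groups that did not overlap were 1 after quantile normalization (Bok) and 0 of the 4 genes that remained with a filter on negative controls, which removes Bok and Bad. Leaving out 1 array gave 2 to 4 members, where 17.7% to 22% of all probe sets did not overlap, and leaving out both replicate 1 arrays gave 3, where 34% did not. Bok, picked for its difference, was among the members counted each time an array was left out.

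The difference of Bok, which was picked for its known difference, lay between 1.20 and 1.34 under all alternatives that held it. Of the uncalled genes, Bcl2l11 reversed to -0.0123 with array weights and Bak1 to -0.0526 without both replicate 1 arrays. With 1 array left out, Bak1 ran from -0.0580 to 0.36, Bcl2l1 from -0.55 to 0.13, Bcl2l11 from -0.34 to 0.66 and Bid from -0.23 to 0.43. The cause was not tested.

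Same-numbered arrays deviated together with correlations of 0.22, 0.04 and 0.18, and differently numbered arrays with correlations from -0.22 to 0.08. These values do not settle whether the numbers pair the samples. With the replicate block 0 probe sets and 0 members were called, and Bok stayed at 1.26. H-Exo replicates 1 and 3 each correlated best with the L-Exo array of the same number. H-Exo replicate 2 correlated best with L-Exo replicate 3 (0.08, against 0.04 with L-Exo replicate 2). Signal over background limits 5 of the 9 genes, which no array measured above it.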
